A study of Mus musculus with 2 samples.

Results

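The cytoplasmic ribosomal protein genes were chosen by symbol: those that start with Rpl or Rps followed by a number, by p and a number, or by a alone. Of 101 symbols that matched, 5 pseudogene names and 10 kinases were left out, which left 86 of the 32285 genes in the matrix. These were 77 canonical ribosomal protein genes, 8 paralogs, and Rps19bp1, which encodes a protein that binds Rps19 and is not itself a ribosomal protein. Fau and Rack1 encode parts of the ribosome under other names, so they fell outside the rule and are given apart. In the kept cells 1 member, Rpl10l, had no unique molecular identifier (UMI, a tag that counts each captured messenger once), and Rpl3l had 25.

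The cytoplasmic ribosome is built from a small and a large subunit, each made of ribosomal RNA and a set of proteins that every cell needs. Most of the messengers for these proteins start with a C followed by a run of pyrimidines, the terminal oligopyrimidine (TOP) tract, through which their translation answers to growth signals. A few ribosomal proteins have a second gene, a paralog, that is used in some tissues more than in others. In the hippocampal dentate gyrus, stem cells keep making granule neurons after birth, so cells that grow and divide lie beside cells that no longer do.

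The samples were 10x Genomics 3′ single-cell libraries made from dentate gyrus at postnatal day 30. The cKO mice carried a Nestin-Cre transgene and Phf2flox/flox alleles, and the control mice carried the same transgene with Phf2+/+ alleles, with 4 mice per genotype. Nestin-Cre acts in neural precursors and their progeny, so vascular and immune cells lie largely outside its reach. The 2 samples were deposited in 1 matrix whose barcodes end in 1 or 2, and no label tied either ending to a genotype. They are called library 1 and library 2, no comparison of cKO with control was made, and every comparison below is between cell classes within the same libraries. Phf2 itself had 1688 UMIs in library 1 and 1211 in library 2, or 21.9 and 16.1 CPM (UMIs scaled to a common total), and 3′ tags do not show which exons were deleted, so this checked no label.

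The libraries held 102897659 and 107266420 UMIs, and 8025 and 8121 cells were kept, with median depths of 8080 and 7227 UMIs. Of the kept barcode sequences, 22 occurred in both libraries. Cells were clustered without any ribosomal protein gene and named by marker genes, which gave 18 classes with at least 20 cells in each library. Each class name stands for cells like that type. RGL are radial glia-like cells, the stem cells of the dentate gyrus, and nIPC are neuronal intermediate progenitors; OPC are oligodendrocyte precursors. In 4 clusters, with 562 and 452 cells, the markers gave no name.

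Ribosomal protein messengers made up 9.60% of the UMIs of kept cells in library 1 and 9.59% in library 2, and the share differed widely between classes. It was highest in the progenitors of granule neurons. In nIPC the share was 16.1% and 16.0% in libraries 1 and 2, in neuroblasts 14.2% and 14.9%, and in cycling cells 14.5% and 14.4%. The ranges of neuroblasts and cycling cells overlapped, and both lay below nIPC in both libraries. The nIPC class held a cluster of 134 and 134 cells led by Ccnd2, Hells, Gpd1, Uhrf1 and Mcm6, which include DNA replication genes. This cluster had 16.6% and 16.4%, and its nIPC score was low, at 1.086 with 4 markers found. The nIPC and cycling classes therefore do not part resting from dividing cells. Cajal-Retzius cells, early neurons that line the dentate gyrus, followed with 12.1% and 12.5%.

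Differentiated glia stood at the other end. Astrocytes had the lowest share, 3.03% and 3.11%, and oligodendrocytes had 3.79% and 3.82%, which did not overlap with astrocytes. RGL, which share many genes with astrocytes, had 7.68% and 7.19%. OPC had 6.96% and 6.62%, and granule neurons, the mature product of the lineage, had 7.42% and 7.996%. The ranges of granule neurons and RGL overlapped, so their order is not resolved.

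Immune and vascular cells lay between these ends. Border macrophages had 11.4% and 12.9%, microglia 9.35% and 10.2%, endothelial cells 10.6% and 11.8%, pericytes 8.42% and 9.27%, and smooth muscle cells 8.94% and 9.29%. In these 5 classes the share was higher in library 2, by 0.346 to 1.55 percentage points. Within microglia, the cluster led by the inflammatory genes Ccl4, Ccl3 and Tnf had 10.4% and 11.5%, and that led by Rgs1, Rgs2 and Rhoh had 8.50% and 9.10%. Counting error was small beside this, since the exact 95% binomial interval for microglia ran from 9.34% to 9.37% in library 1. Intervals here cover counting error only.

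**Figure D1:**
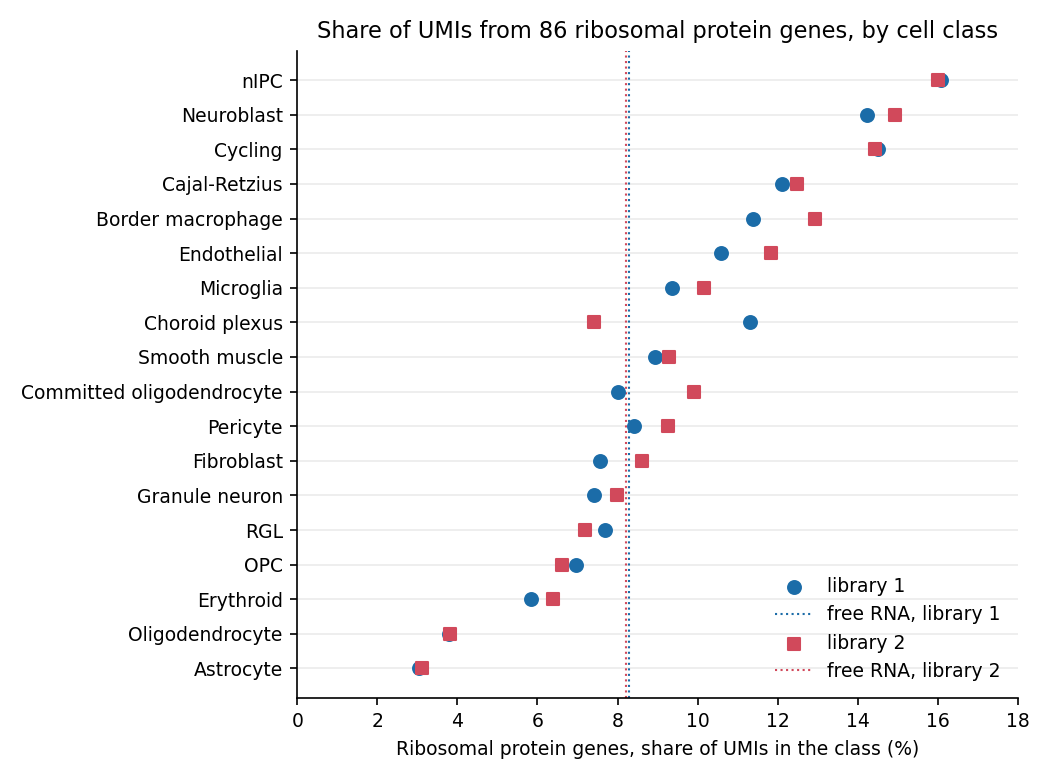
Share of all UMIs (x axis, %) that came from the 86 ribosomal protein genes in each of 18 cell classes (y axis, ordered by the mean), with circles for library 1 and squares for library 2. Dotted lines mark the share in free RNA, 8.29% and 8.21%; nIPC lie at 16.1% and 16.0% and astrocytes at 3.03% and 3.11%, with both libraries close together in each.

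Free RNA, taken from barcodes under 100 UMIs, held 8.29% and 8.21% ribosomal protein UMIs, so the highest and lowest classes lay well to either side of it. Depth moved with the share inside some classes. In the neuroblast class a cluster of shallow cells (medians 2421 and 2225 UMIs) had shares of 23.4% and 22.8%, against 13.8% and 14.3% in the largest neuroblast cluster, at 9845 and 8478.5 UMIs. In the RGL class a shallow cluster, at 1780 and 1937 UMIs, had 12.1% and 12.1%, against 7.44% and 6.92% in the main cluster. Shallow cells did not always have the higher share. Another RGL cluster, of 14 and 17 cells at a median of 1752 UMIs over both libraries, had a median share of 1.21% over cells. In pericytes the shallower cluster, at 4401.5 and 4122 UMIs, had 6.74% and 7.31%, against 9.12% and 9.76% in the deeper cluster. Across the 18 classes the share and the median depth had a Spearman rho of 0.05, and the share and the median mitochondrial share one of -0.43; the points share 2 libraries and these are descriptions only. The part of depth in the class values was not tested beyond raising the UMI minimum to 2000.

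Choroid plexus was the class in which the libraries differed most, with 11.3% in library 1 and 7.42% in library 2. It rested on 29 and 336 cells. A cluster with 1 and 108 cells, at 6.30% in library 2, was nearly all from library 2; in the other cluster the libraries had 11.7% and 10.7%. Ttr, whose product transthyretin this epithelium secretes in bulk, took 17.3% and 31.5% of the class' UMIs.

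Astrocytes and RGL share much of their expression, and the first comparison set RGL against astrocytes. All 77 canonical ribosomal protein genes were higher in RGL than in astrocytes (edgeR quasi-likelihood test, Benjamini-Hochberg adjusted p under 0.05). In this comparison 24.9% of 12205 genes tested were called higher and 51.9% in either direction. The median log2 fold change of the 83 members tested was 0.97, beside 0.01 over all genes tested, and canonical genes ran from 0.38 for Rpl21 to 1.503 for Rpl10. The share of UMIs was 4.36 ± 0.400 percentage points higher in RGL (SD of the difference over 2 libraries); differences in share were not tested. Rps19bp1 was not called, and Rpl10l, Rpl39l and Rpl3l were too low to test.

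Among genes without a paralog, the largest differences fell on both subunits. Rplp0, the base of the ribosomal stalk that binds elongation factors, had 845 and 796 CPM in RGL, against 250 and 247 CPM in astrocytes, a log2 fold change of 1.40 ± 0.08 (SE; edgeR adjusted p 1.36e-29). Rps19, a small-subunit protein mutated in Diamond-Blackfan anaemia in humans, had 944 and 855 CPM in RGL, against 270 and 301 CPM in astrocytes. Rpl12 and Rpsa were also among the largest in genes without a paralog, with log2 fold changes of 1.33 and 1.24. In each of these genes every RGL value lay above every astrocyte value. When counts were scaled to the summed ribosomal protein UMIs, so that only the mix within the family remained, 13 canonical genes were higher and 10 lower in RGL.

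In nIPC, with the cluster led by Ccnd2 and Hells among them, the canonical family was higher again than in RGL. All 77 canonical genes were higher in nIPC, where 34% of 12571 genes tested were called higher and 68.1% in either direction. The median of the 83 members tested was 0.98, beside 0.00 over all genes. The share was 8.60 ± 0.283 percentage points higher in nIPC (SD over 2 libraries). Median depth was also higher in nIPC, at 13161 and 11210 UMIs, than in RGL, at 6761.5 and 6336.5 UMIs; its part was not tested beyond the UMI minimum.

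Rps6, the small-subunit protein phosphorylated downstream of mTOR, had 1294 and 1285 CPM in nIPC, against 424 and 387 CPM in RGL, a log2 fold change of 1.51 ± 0.07 (SE; edgeR adjusted p 5.36e-23). Rps3, at the messenger entry site of the small subunit, rose by the same 1.51, with 2038 and 1924 CPM in nIPC, against 664 and 586 CPM in RGL. Rpl35, Rpl29 and Rpl5, the last of which carries 5S ribosomal RNA, rose by 1.32, 1.32 and 1.28 on the log2 scale. The libraries of each class stood close together and the classes did not overlap. The smallest change among canonical genes was 0.26 for Rps21.

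Between neuroblasts and nIPC the family as a whole differed little. These classes border on each other: an nIPC cluster of 158 and 128 cells was led by markers of both. Of 77 canonical genes, 10 were higher and 27 lower in neuroblasts and 40 were not called; counting paralogs, 11 members were higher and 30 lower. In all, 41 of 83 members were called, where 52.7% of 12477 genes tested were called, 26.3% higher and 26.4% lower; the members' share lies near this background and is not read as a result about the family. The median of the members was -0.06, beside 0.00 over all genes, and canonical genes ran from -0.41 for Rps2 to 0.29 for Rpl38. With total-count scaling 5 members were higher and 46 lower. The share of UMIs was 1.45 ± 0.550 percentage points lower in neuroblasts (SD over 2 libraries), but averaged over cells the difference was -0.621 points in library 1 and 0.424 in library 2.

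Rpl38, a large-subunit protein whose loss disturbs the body plan in mice, had 2311 and 2489 CPM in neuroblasts, against 2082 and 2076 CPM in nIPC, a log2 fold change of 0.29 ± 0.05 (SE; edgeR adjusted p 5.78e-08). Rps7, Rps14 and Rpl34 were also higher, by 0.27, 0.20 and 0.18. On the other side, Rps2 had 1470 and 1587 CPM in neuroblasts, against 2112 and 2202 CPM in nIPC, and fell by 0.41 on the log2 scale. Rplp1, a stalk protein, Rpl41, Rpl8 and Rpsa fell by 0.40, 0.39, 0.38 and 0.31. The calls of Rps14 and Rpl34 were lost with total-count scaling (adjusted p 0.0587 and 0.140).

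In granule neurons most of the family was lower than in neuroblasts. Of 77 canonical genes, 75 were lower and 2 higher in granule neurons, while 32.5% of 12106 genes tested were called lower and 64.7% in either direction. The median of the 83 members tested was -0.89, beside -0.05 over all genes. The share was 6.88 ± 0.0821 percentage points lower in granule neurons (SD over 2 libraries). There were 49 and 106 granule neurons, at a median of 20867 and 19497.5 UMIs per cell; the 734 and 762 neuroblasts had 9402 and 7696.5.

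Rplp0 moved most, with 487 and 579 CPM in granule neurons, against 1858 and 1934 CPM in neuroblasts, and fell by 1.78 ± 0.08 on the log2 scale (SE; edgeR adjusted p 1.55e-108). Rps9 fell by 1.57 and Rps14 by 1.44. The canonical genes that went the other way were Rpl3, which lines the peptidyl transferase centre, and Rplp1. Rpl3 had 1434 and 1478 CPM in granule neurons, against 1222 and 1303 CPM in neuroblasts, a log2 fold change of 0.25 ± 0.07 (SE; edgeR adjusted p 0.00114). Rplp1 had 1823 and 1969 CPM in granule neurons, against 1669 and 1777 CPM in neuroblasts, a log2 fold change of 0.19 ± 0.07 (adjusted p 0.0181). Rplp1 and Rplp0 sit in the same stalk, and their messengers went in opposite directions. The call of Rplp1 was lost with DESeq2 (adjusted p 0.0503) and those of Rplp1 and Rpl3 without the filter on low counts (adjusted p 0.588 and 0.236). Relative to the family as a whole, Rpl3 was higher by 1.13 and Rplp1 by 1.06 on the log2 scale.

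**Figure D2:**
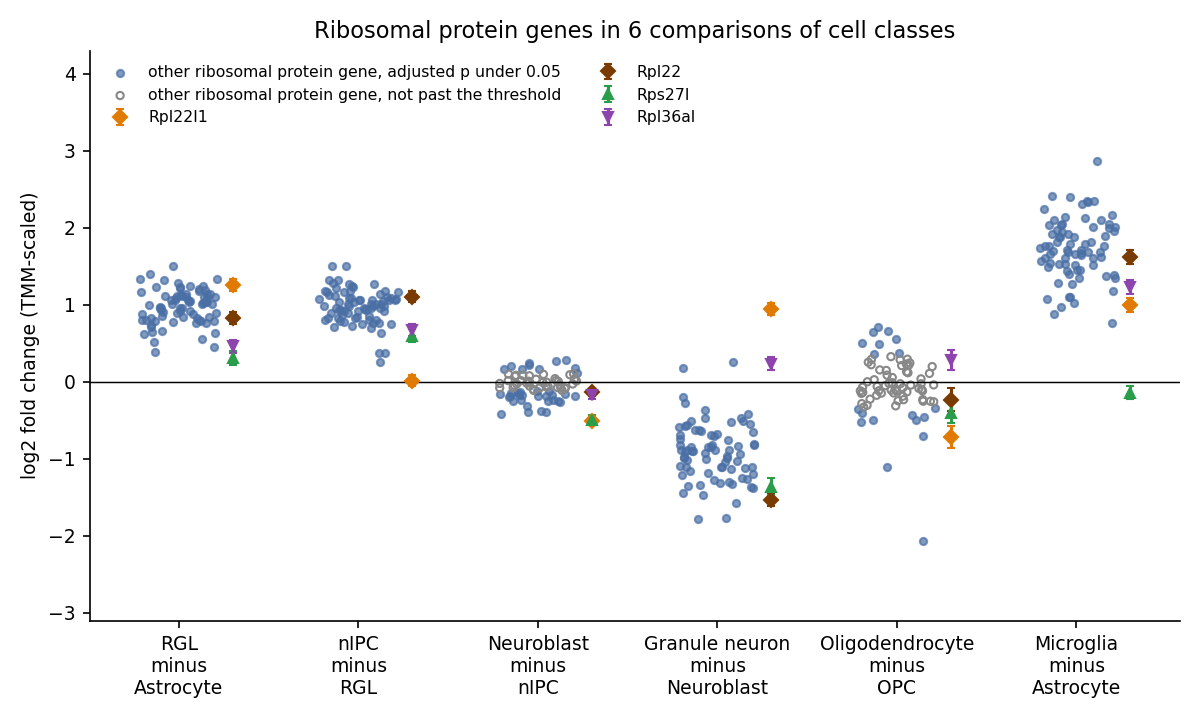
Log2 fold change (y axis) of each ribosomal protein gene in 6 comparisons of cell classes (x axis), with filled points for genes past the threshold, open points for those not past it, and larger symbols with standard errors for Rpl22, Rpl22l1, Rps27l and Rpl36al. The family lies around 0.97 in RGL minus astrocyte, 0.98 in nIPC minus RGL and -0.89 in granule neuron minus neuroblast, where Rpl22l1 lies at 0.94; low paralogs and Rps19bp1 are not drawn.

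The call in oligodendrocytes depended on the scaling. Of 77 canonical genes, 8 were higher and 11 lower in oligodendrocytes than in OPC with trimmed-mean (TMM) scaling, and counting paralogs 8 members were higher and 13 lower, where 42.5% of 11505 genes tested were called, 21.5% higher and 21% lower. Scaled to total counts, 0 members were called higher and 76 lower by the same edgeR test, and all 83 had negative log2 fold changes, with a median of -0.82; that scaling moved the median of all genes to -0.69. As a share of UMIs the family was 2.98 ± 0.261 percentage points lower in oligodendrocytes (SD over 2 libraries). The 10 most abundant genes outside the family and the mitochondrial genome, with Malat1 at their head, took 22.7% and 21.9% of UMIs in oligodendrocytes, against 7.46% and 10.1% in OPC; their part was not tested. OPC were only 26 and 57 cells, and in simulated data of this size 14% of genes changed by 1 on the log2 scale were recovered.

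Rpl13 stood apart in OPC. This large-subunit gene, at chr8:123102350-123105244 on mm10, had 725 and 705 CPM in oligodendrocytes, against 4982 and 5007 CPM in OPC, and fell by 2.07 ± 0.12 on the log2 scale (SE; edgeR adjusted p 1.42e-06). Its part of the family's UMIs was 7.16% and 7.56% in OPC and between 1.54% and 2.37% in every other class and library. Rpl10a was lower as well, with 157 and 157 CPM in oligodendrocytes, against 608 and 519 CPM in OPC. Rps19, Rps15a and Rps18 fell by 0.52, 0.50 and 0.50 with TMM scaling. Rps3, Rps21, Rpl4, Rpsa and Rpl28 were higher in oligodendrocytes by 0.71, 0.66, 0.65, 0.55 and 0.51 with TMM scaling, but not with total-count scaling, where all 5 had negative log2 fold changes. Of the 10 genes named here, Rps3, Rps21, Rpl13 and Rpl10a were also called by DESeq2.

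Microglia, the resident immune cells, were set against astrocytes as the other common glia. All 77 canonical genes were higher in microglia, where 41.7% of 13937 genes tested were called higher and 79.8% in either direction. The median of the 84 members tested was 1.69, beside 0.08 over all genes, and the share was 6.69 ± 0.521 percentage points higher in microglia (SD over 2 libraries). Rpl10, an X-linked large-subunit gene, differed most, with 1312 and 1446 CPM in microglia, against 197 and 203 CPM in astrocytes, a log2 fold change of 2.86 ± 0.10 (SE; edgeR adjusted p 6.13e-13). Rpl12, Rps12, Rps6, Rplp1 and Rps29 led the genes without a paralog, at 2.41, 2.40, 2.35, 2.34 and 2.33. Rpl31 had the smallest difference among canonical genes, 0.76.

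Paralog use was read as the paralog's part of the UMIs of the pair. A 3′ tag counts a messenger once whatever its length, but genes can differ in how well they are captured, so this share was compared between classes and not read as a ratio of messengers. Near-identical copies share reads, and the sources used here do not say how the counting split them. The paralogs that could be followed were Rpl22l1, Rps27l, Rpl36al, Rpl7l1 and Rps27rt.

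Rpl22l1 and Rpl22 encode 2 versions of the same large-subunit protein, and in mice that lack Rpl22 the Rpl22l1 level is raised. Rpl22l1 lies at chr3:28805436-28807424 and Rpl22 at chr4:152325742-152334071, both on the plus strand of mm10. The start regions of the pairs whose use differed most between classes are shown because their members parted in level between classes. Each runs from 50 bases before to the 20th base of the transcript in RefSeq on GRCm38.p6, and capitals mark the longest run of pyrimidines within 30 bases on either side of the start.
Rpl22: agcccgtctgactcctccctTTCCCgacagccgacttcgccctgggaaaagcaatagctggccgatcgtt
Rpl22l1: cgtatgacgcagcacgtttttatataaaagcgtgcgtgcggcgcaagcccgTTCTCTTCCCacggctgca
Rps27: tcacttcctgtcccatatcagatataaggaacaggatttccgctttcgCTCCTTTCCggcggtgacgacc
Rps27l: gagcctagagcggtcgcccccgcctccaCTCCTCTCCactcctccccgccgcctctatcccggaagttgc
Rpl36a: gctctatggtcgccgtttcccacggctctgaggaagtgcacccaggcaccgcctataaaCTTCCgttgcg
Rpl36al: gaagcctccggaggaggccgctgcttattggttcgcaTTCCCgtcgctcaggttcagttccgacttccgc

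These windows were at chr4:152325676-152325745 (plus strand) for Rpl22, chr3:28805458-28805527 (plus) for Rpl22l1, chr3:90213629-90213698 (minus) for Rps27, chr9:66946036-66946105 (plus) for Rps27l, chrX:134585604-134585673 (plus) for Rpl36a and chr12:69184048-69184117 (minus) for Rpl36al. Counted within those 30 bases, the longest run had 10 pyrimidines in Rpl22l1, 9 in Rps27 and Rps27l, and 5 in Rpl22, Rpl36a and Rpl36al. The run of Rps27 spanned the listed start, and those of Rpl22l1 and Rpl36a lay after it. The runs of Rps27l, Rpl22 and Rpl36al ended before it, outside the listed transcript. A run counted this way is therefore not by itself a TOP tract. In Rpl22 the marked bases are the end of a longer run that begins before the counted bases. Of 66 members with a start region in the table, 32 (48.5%) held a run of at least 8 pyrimidines there, against 3601 of 16456 other protein-coding genes (21.9%). In the window from 250 bases before to 50 after the start, on either strand, CCGGAAGT was found in 12 members (18.2%) and 5.49% of the others, ATGGCG in 19 members (28.8%) and 11.5%, and TATAAA in 6 members (9.09%) and 12.9%. None of the 3 strings contains another. Rpl22l1 and Rpl36a were among the 6 with TATAAA, and Rps27l held CCGGAAGT.

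Rpl22l1 was the member whose level departed most from the family, relative to its summed counts, in each of the 3 comparisons along the granule neuron lineage. Its part of the pair was 53.0% and 56.5% in RGL, 34.5% and 37.9% in nIPC, 28.8% and 32.0% in neuroblasts, and 69.7% and 71.9% in granule neurons. Exact 95% binomial intervals in library 1 were 51.4% to 54.6% in RGL, 27.9% to 29.8% in neuroblasts and 66.9% to 72.4% in granule neurons. The 4 classes did not overlap across libraries. Free RNA had 38.2% and 38.6%.

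Both genes contributed. In granule neurons Rpl22l1 had 710 and 795 CPM, against 375 and 435 CPM in neuroblasts, a log2 fold change of 0.94 ± 0.08 (SE; edgeR adjusted p 3.82e-32). Rpl22 had 309 and 310 CPM in granule neurons, against 925 and 923 CPM in neuroblasts, and fell by 1.53 ± 0.08 on the log2 scale (adjusted p 1.05e-72). Rpl22l1 rose where 75 of 77 canonical genes fell, and relative to the family it was higher by 1.81. After each cell was thinned to 1000 UMIs, 44.9% and 54.7% of granule neurons had an Rpl22l1 UMI, against 31.2% and 36.2% of neuroblasts; for Rpl22 the shares were 20.4% and 19.8% in granule neurons, against 60.1% and 59.1% in neuroblasts. Unthinned, 98.0% and 97.2% of granule neurons had an Rpl22l1 UMI, against 89.4% and 88.2% of neuroblasts; for Rpl22 the shares were 95.9% and 97.2% of granule neurons, against 98.4% and 96.7% of neuroblasts.

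In nIPC against RGL, Rpl22 was called and Rpl22l1 was not. Rpl22 had 1100 and 1055 CPM in nIPC, against 473 and 423 CPM in RGL, and rose by 1.11 ± 0.07 on the log2 scale (SE; edgeR adjusted p 2.66e-18). Rpl22l1 had 580 and 643 CPM in nIPC, against 533 and 550 CPM in RGL, with a log2 fold change of 0.01 ± 0.07 (adjusted p 0.868), and was called at 0.17 with total-count scaling (adjusted p 0.0294). In neuroblasts against nIPC, Rpl22l1 fell by 0.51 and Rpl22 by 0.14; the smaller call was lost with DESeq2 (adjusted p 0.203). In RGL against astrocytes both rose, Rpl22l1 by 1.26 and Rpl22 by 0.83.

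**Figure D3:**
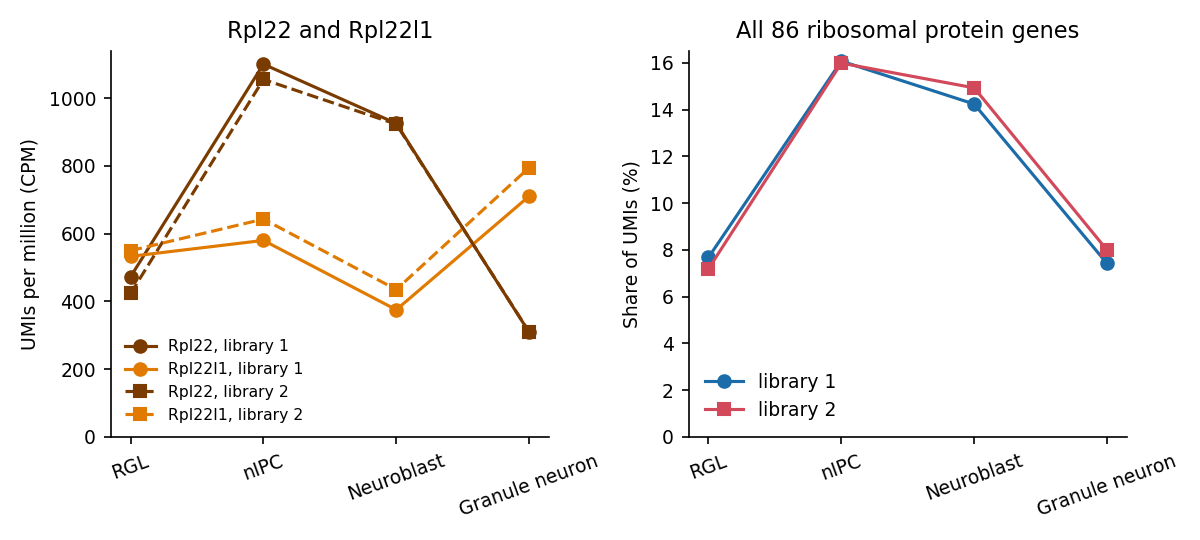
Left, CPM of Rpl22 (brown) and Rpl22l1 (orange) in RGL, nIPC, neuroblasts and granule neurons, with circles and solid lines for library 1 and squares and dashed lines for library 2; right, the share of UMIs from all 86 ribosomal protein genes in the same classes. Rpl22 has 1100 and 1055 CPM in nIPC and 309 and 310 CPM in granule neurons, where Rpl22l1 has 710 and 795 CPM.

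Across all classes the Rpl22l1 part of the pair had a median of 40.7% over class means. Cajal-Retzius cells had the highest, 73.0% and 74.8%, and did not overlap with granule neurons, the next class. Both are neurons that have left the cell cycle, but a link to the cell cycle was not tested. Neuroblasts, with 28.8% and 32.0%, lay below cycling cells, with 42.9% and 48.0%. Endothelial cells had the lowest, 25.9% and 27.4%, followed by border macrophages with 25.8% and 30.5%, whose range overlapped. Microglia had 35.5% and 38.2% and astrocytes 46.0% and 48.7%. In 17 of the 18 classes the Rpl22l1 part was higher in library 2, the exception being committed oligodendrocytes. OPC had the widest gap, 41.9% and 51.6%.

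Rps27l, a paralog of Rps27 that is induced by p53 in human and mouse cells, followed another order. Its part of the pair was highest in cells of the oligodendrocyte lineage and choroid plexus: 29.9% and 30.7% in committed oligodendrocytes, 28.5% and 29.0% in OPC, and 32.3% and 25.2% in choroid plexus. Cycling cells had 22.4% and 23.1%, oligodendrocytes 21.5% and 19.9%, and astrocytes 20.8% and 18.9%. It was lowest in Cajal-Retzius cells, at 6.04% and 5.64%, and microglia, at 6.18% and 5.81%, which overlapped. Free RNA had 11.1% and 12.2%.

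In microglia Rps27l had 109 and 115 CPM, against 134 and 128 CPM in astrocytes, a log2 fold change of -0.14 ± 0.09 (SE; edgeR adjusted p 0.150), while its partner Rps27 rose by 1.82. Relative to the family Rps27l had a log2 fold change of -1.89 in microglia. Along the neuronal lineage Rps27l rose by 0.60 in nIPC against RGL, fell by 0.49 in neuroblasts against nIPC, and fell by 1.36 in granule neurons against neuroblasts. Its direction was thus that of the family in granule neurons, unlike that of Rpl22l1.

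Rpl36al, the autosomal copy of the X-linked gene Rpl36a, took the largest part in oligodendrocytes, 56.2% and 56.7%. Astrocytes had 49.7% and 45.0% and committed oligodendrocytes 45.9% and 47.6%. Granule neurons had 43.5% and 44.8%, above neuroblasts with 31.0% and 28.3%, nIPC with 29.9% and 28.5% and cycling cells with 28.6% and 28.0%. In granule neurons Rpl36al had 456 and 496 CPM, against 416 and 422 CPM in neuroblasts, a log2 fold change of 0.24 ± 0.08 (SE; edgeR adjusted p 0.00654), a call lost with DESeq2 (adjusted p 0.149). Rpl36a fell by 0.68 in the same comparison. Rpl22l1, Rpl36al, Rpl3 and Rplp1 were the 4 members called higher in granule neurons than in neuroblasts.

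**Figure D4:**
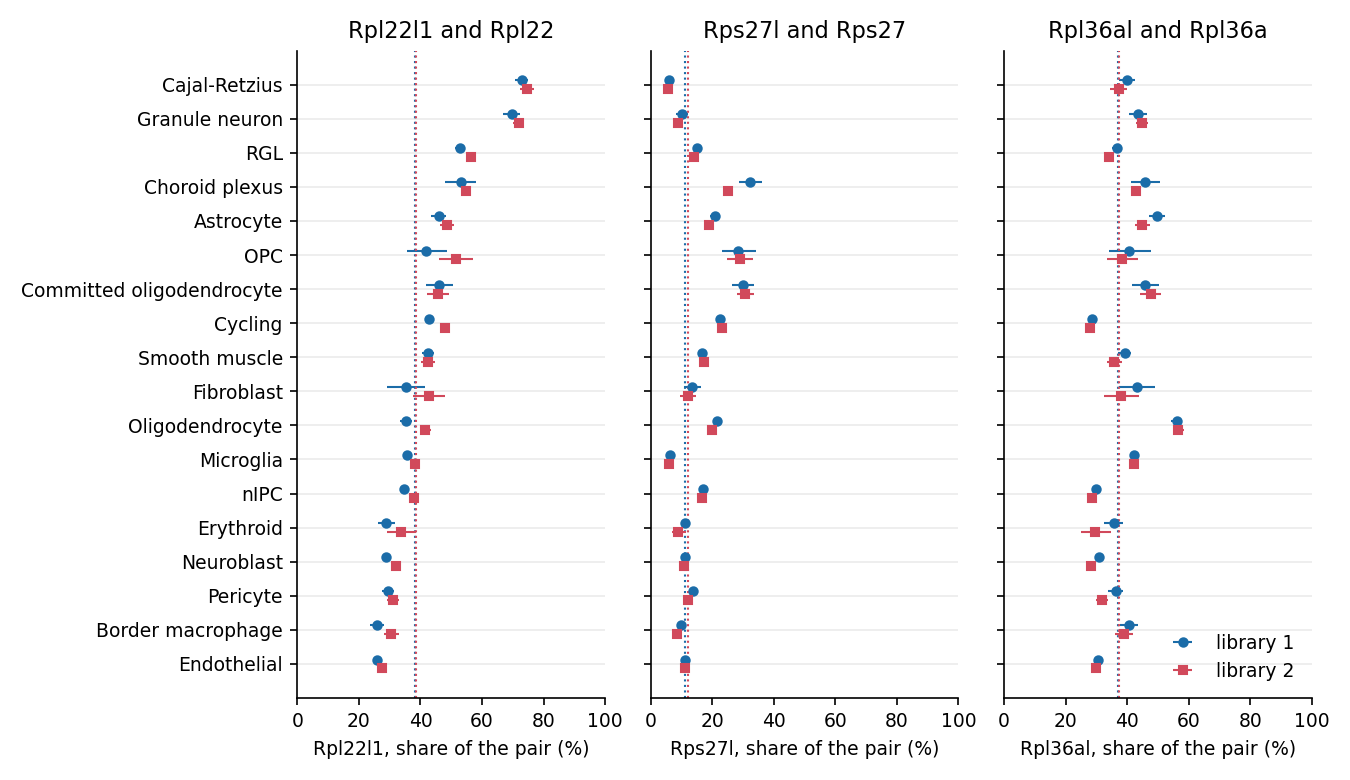
Part of the UMIs of each pair that came from Rpl22l1, Rps27l or Rpl36al (x axes, %) in 18 cell classes (y axis, ordered by the Rpl22l1 part), with circles for library 1, squares for library 2, exact 95% binomial intervals as bars and free RNA as dotted lines. Cajal-Retzius cells and granule neurons have the highest Rpl22l1 part, 73.0% and 74.8% and 69.7% and 71.9%, and Cajal-Retzius cells the lowest Rps27l part, 6.04% and 5.64%.

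The remaining paralogs were low. Rpl7l1 made up between 3.46% (choroid plexus) and 14.0% (OPC) of its pair with Rpl7 as class means. Rps27rt, a copy of Rps27 without introns, had class means between 2.73% and 4.20% of its pair. Rpl39l, best known from testis, had 50 and 33 UMIs in microglia, 27 and 13 in endothelial cells, 6 and 8 in pericytes and 7 and 7 in border macrophages. It was at 0 in both libraries of astrocytes, oligodendrocytes, OPC and granule neurons. In microglia its 83 UMIs came to 1.92 CPM, at least 5.77-fold higher than the 0.3327 CPM that 0 UMIs in all astrocytes allow (3 counts over the class). Free RNA held 4 and 5 Rpl39l UMIs, or 0.794 and 1.69 CPM, against 2.01 and 1.80 CPM in microglia; in library 2 these levels were close, so the microglial UMIs are not read as expression. Endothelial cells had 2.75 and 1.57 CPM, the second below free RNA. Border macrophages had 5.82 and 6.83 CPM and pericytes 2.87 and 3.20 CPM, above free RNA in both libraries but from few UMIs. Rpl3l, known from striated muscle, had at most 6 UMIs in any class and library.

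For most members the part of the family's UMIs varied by no more than 2-fold across classes. For each of the 80 members with at least 100 UMIs in every class, the largest part of the family's UMIs in any class was divided by the smallest; the median ratio was 1.75 and 24 members were above 2. The widest ranges belonged to Rps27l at 5.88, Rpl13 at 4.62, Rps29 at 3.56, Rpl22l1 at 3.55 and Rpl41 at 3.36. The narrowest belonged to Rpl26, Rps13, Rpl23, Rpl34 and Rps23, between 1.40 and 1.28. Small-subunit genes held between 39.0% (OPC, library 2) and 47.1% (border macrophages, library 2) of the subunit UMIs.

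Rps29, a zinc-binding small-subunit protein and the most abundant member at 3.38% of the family's UMIs, took its largest parts in border macrophages and microglia. It made up 7.48% and 7.76% of the family's UMIs in border macrophages and 4.74% and 5.003% in microglia. Erythroid cells followed with 3.76% and 3.68%, and neuroblasts were the lowest class, with 2.07% and 2.22%. Its level was 8517 and 10037 CPM in border macrophages, 4436 and 5089 CPM in microglia and 3676 and 3833 CPM in nIPC. Rpl41, which encodes the shortest ribosomal protein, made up 4.92% and 4.96% in choroid plexus and 1.46% and 1.49% in Cajal-Retzius cells. The Rpl41 values of choroid plexus were close in both libraries although the family's share of UMIs was not. Rps23, at the decoding centre, had the narrowest range, from 1.43% in oligodendrocytes to 1.83% in Cajal-Retzius cells.

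**Figure D5:**
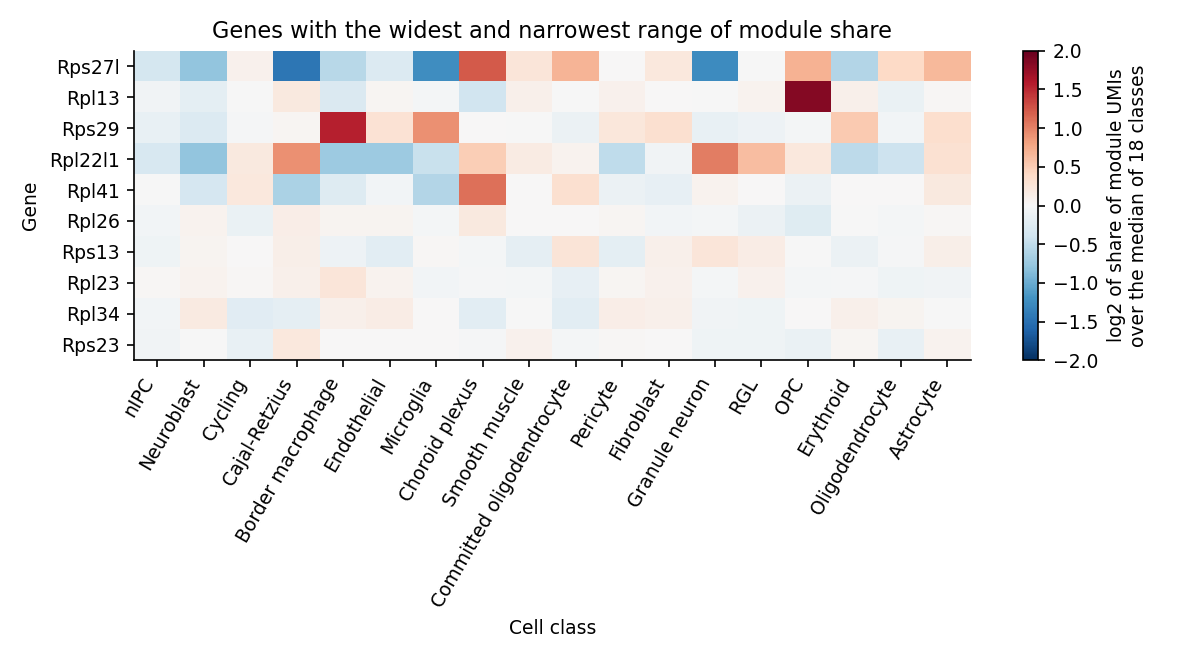
Part of the ribosomal protein UMIs taken by the 5 genes with the widest and the 5 with the narrowest range (rows) in 18 cell classes (columns, ordered by the family's share of UMIs), as log2 over the median of the classes. Rpl13 stands out in OPC, at 7.16% and 7.56%, Rps29 in border macrophages, at 7.48% and 7.76%, and Rpl41 in choroid plexus, at 4.92% and 4.96%.

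Fau and Rack1, the subunit genes given apart, moved with the family in 4 comparisons. Fau, whose product joins a ubiquitin-like domain to a small-subunit protein, and Rack1, a scaffold on the small subunit, were both called higher in RGL against astrocytes, in nIPC against RGL and in microglia against astrocytes, and both lower in granule neurons against neuroblasts. Rack1 had 353 and 317 CPM in granule neurons, against 1118 and 1139 CPM in neuroblasts, and fell by 1.71 ± 0.08 on the log2 scale. Fau was higher by 2.64 in microglia against astrocytes, with 3151 and 3341 CPM in microglia and 553 and 552 CPM in astrocytes.

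Elongation factors and other genes with TOP messengers largely kept step. Of 15 listed, 12 were higher in RGL against astrocytes, where 24.9% of all genes were. In nIPC against RGL 13 of 14 tested were higher (34% of all genes), and in granule neurons against neuroblasts 14 were lower and 1 higher (32.5% and 32.2% of all genes). That exception was Eef1a2, the form of elongation factor 1 alpha used in neurons and muscle, with 347 and 331 CPM in granule neurons, against 10.5 and 15.4 CPM in neuroblasts. Tpt1 and Eef2 fell by 1.70 and 1.83 there. Ribosome biogenesis genes rose with the family in nIPC against RGL, where 26 of 30 tested were higher (34% of all genes) and 1 lower, Sbds, which releases the large subunit for use, with a fall of 1.80. In granule neurons against neuroblasts they did not follow it: of 30 tested 6 were higher and 9 lower, beside 32.2% and 32.5% of all genes, and Mycn, a driver of growth, fell by 3.53.

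Mitochondrial ribosomal proteins, which build the separate ribosome of mitochondria, followed the cytoplasmic family in some comparisons and not in others. In granule neurons against neuroblasts 46 of 78 were higher and 6 lower (32.2% and 32.5% of all genes), with a median log2 fold change of 0.49, beside -0.89 for the cytoplasmic family. Mrps26 led with 234 and 246 CPM in granule neurons, against 59.9 and 54.5 CPM in neuroblasts. In microglia against astrocytes 8 were higher and 53 lower (41.7% and 38.2% of all genes), with a median of -0.64, beside 1.69 for the cytoplasmic family. In RGL against astrocytes 10 were higher and 8 lower (24.9% and 27% of all genes), with a median of -0.0014, beside 0.97. In nIPC against RGL 36 were higher and 7 lower (34% and 34.1% of all genes), with a median of 0.22, beside 0.98. In neuroblasts against nIPC 2 were higher and 40 lower (26.3% and 26.4% of all genes), with a median of -0.22, beside -0.06.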

How the data were processed

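The submitters deposited 1 matrix for both samples, holding unnormalized UMI counts by gene and barcode, per the file headers. Their processing notes name Cell Ranger 4.0.0, Scanpy 1.7.0 and the mm10 build, per the submitters' processing notes; how reads that map to several genes, or to either strand, were handled is not stated in these sources. Barcodes with at least 1000 UMIs, 500 genes and at most 20% mitochondrial UMIs were kept, and Scrublet doublets (230 and 260) were removed. Cells were clustered with scanpy 1.11.5 (Leiden, 40 components, 15 neighbours, resolution 1.0) without ribosomal protein genes or the listed genes. Clusters were named by marker scores; 2 clusters that held 2 related classes were split once at resolution 0.3, a step added after the data were seen.

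UMIs were summed per class and library and fitted with edgeR 4.0.16 (R 4.3.3; TMM, filterByExpr, quasi-likelihood test, library as a block) on the whole table, with Benjamini-Hochberg adjustment over all genes tested. Each class has 2 libraries, of different genotype and each from pooled mice, and each fit left 1 residual degree of freedom. The spread behind the p-values was therefore mostly borrowed across genes, and it is not a spread among mice. The weight of the other genes, as prior degrees of freedom, was lowest in oligodendrocyte minus OPC, at 7.89. In neuroblast minus nIPC and granule neuron minus neuroblast it was infinite, so that spread came wholly from all genes together. Classes from the same library come from the same pooled mice, which is the pairing in the block. DESeq2 1.42.0 was an alternative, and other settings are given in the closing section. The fit was tested on simulated data with 200 genes changed by 1 on the log2 scale. Between 72.5% and 84.5% of them were recovered, except in oligodendrocyte minus OPC (14%). False calls made up 8.65% of the calls in neuroblast minus nIPC and 6.32% in RGL minus astrocyte. Both lay above the rate that the threshold on adjusted p is set to hold. In the other comparisons false calls made up between 0% and 3.33% of the calls.

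Named genes were the paralogs and their partners, the 5 largest changes in each direction per comparison with the same sign in both libraries, and the 5 widest and 5 narrowest ranges of family share. Of the listed genes up to 3 per direction were eligible. Some genes that this rule names are not reported here. Genes named as the ends of a range were chosen after their values were seen. Members and lists were chosen with earlier results of these data known. Gene positions are from GENCODE M21 on mm10, and all 86 members matched by identifier; 20 overlap a gene on the other strand and 1, Rpl19, a gene on the same strand among the deposited features. Start regions are from RefSeq (GRCm38.p6; 66 members matched), taking the start nearest the GENCODE 5′ end.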

Additional observations from a re-analysis of the deposited data

How the results depend on the processing

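Scaling to the summed ribosomal protein counts leaves only the mix within the family. The members called higher and lower then became 14 and 14 in RGL minus astrocyte, 24 and 23 in nIPC minus RGL, and 19 and 22 in neuroblast minus nIPC. They were 27 and 30 in granule neuron minus neuroblast, 14 and 7 in oligodendrocyte minus OPC, and 24 and 29 in microglia minus astrocyte. With total-count scaling they were 5 and 46 in neuroblast minus nIPC and 0 and 76 in oligodendrocyte minus OPC; in microglia minus astrocyte 1 was lower. That scaling moved the median of all genes to 0.33 in RGL minus astrocyte and 0.16 in nIPC minus RGL, where the members' medians were 1.29 and 1.14. DESeq2 called 18 lower in neuroblast minus nIPC, 2 higher in granule neuron minus neuroblast, and 2 higher and 3 lower in oligodendrocyte minus OPC. Without the replicate block 18 were lower in neuroblast minus nIPC; no other count of calls moved by over 1.5 times. The mitochondrial limit of 10% gave 46 lower in neuroblast minus nIPC and 1 lower in microglia minus astrocyte, and naming by best score alone gave 2 lower in microglia minus astrocyte. Without the low-count filter, 1 was higher in granule neuron minus neuroblast, 19 were higher and 5 lower in oligodendrocyte minus OPC (members' median 0.0761, against -0.08 with it), and 1 was lower in microglia minus astrocyte; this setting tests more genes. The cause of the other moves was not tested. In oligodendrocyte minus OPC, total-count scaling reversed Rps3 (-0.0225), Rps21 (-0.0718), Rpl4 (-0.0819), Rpsa (-0.18), Rpl28 (-0.22), Rpl7 (-0.40), Rps27 (-0.50), Rpl36al (-0.45) and Rpl3 (-0.49).

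Differences in the share of UMIs kept their mean direction in every setting run. Subtracting free RNA at 10% gave 4.81 points for RGL minus astrocyte, 9.45 for nIPC minus RGL, -7.58 for granule neuron minus neuroblast, -3.30 for oligodendrocyte minus OPC and 7.36 for microglia minus astrocyte. Means over cells gave 4.76, 8.23, -0.0987 (neuroblast minus nIPC) and -8.02 for granule neuron minus neuroblast. Leaving out mitochondrial UMIs gave 8.96 for nIPC minus RGL and -7.28 for granule neuron minus neuroblast. The mitochondrial limit of 10% gave 8.94 and -6.55 for the same comparisons, and for the last one the UMI minimum of 2000 gave -6.76 and naming by best score -6.73. Leaving out a library leaves no residual degrees of freedom, so no calls could be made; the median of the members then ran from 0.89 to 1.06 in RGL minus astrocyte, 0.95 to 1.01 in nIPC minus RGL, -0.0862 to -0.0362 in neuroblast minus nIPC (-0.06 with both libraries), -0.93 to -0.87 in granule neuron minus neuroblast, -0.0704 to -0.0668 in oligodendrocyte minus OPC and 1.68 to 1.71 in microglia minus astrocyte. The widest-range ratio of Rps27l was 7.08 without library 2.

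The number of cells limits the rare classes: OPC, committed oligodendrocytes, fibroblasts and granule neurons had 26 to 106 cells per library. Genotype and library cannot be told apart from each other or assigned, so no value here bears on Phf2.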

Other observations

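The highest share of ribosomal protein UMIs of any cluster was in cells that the markers did not name. This cluster, of 33 and 34 cells led by H2-Eb1, H2-Aa, H2-Ab1, Ccl5, S100a9 and Cd74, had 25.6% in library 1 and 27.5% in library 2, at median depths of 6562 and 6186 UMIs. H2 genes and Cd74 encode the class II antigen presentation machinery, and S100a9 encodes a calcium-binding protein of neutrophils and monocytes. It was chosen after its value was seen. A second unnamed cluster, led by Cst7, Cd52 and Lgals3, had 21.9% and 21.8% at 1548 and 1473.5 UMIs. The unnamed cluster led by Mt2, Mt1 and Aldoc had 5.56% and 6.16% at 1813 and 1798.5 UMIs. It scored highest as astrocyte, at 2.615, and stayed unnamed because its erythroid score, at 1.99, was close. Named by best score alone it joined the astrocytes, whose share was then 3.41% and 3.39%, against 3.03% and 3.11% without it.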
